A study of Mus musculus with 6 samples.

Results

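The interleukins and their receptors were followed through 6 mouse colorectal tumours, as 78 of the 22180 genes measured. Members were the gene symbols that start with Il and a digit, each read by 1 probe set that carries a single gene symbol; 1 gene (Il1rap) had several such probe sets, and the one with the highest mean was kept. There were 40 symbols on the ligand side, among them the antisense transcript Il1bos of the Il1b locus, 37 receptor genes and the binding protein gene Il18bp. Il1rl1, Il2rg, Il11ra1 and Il4i1 were not analysed here, for want of a probe set with 1 symbol.

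In 1 group of mice the colorectal cancer cells grew within white fat, the body's main energy store, and in the other at a non-adipose site; tumours were taken at 1 to 1.5 cm3. Each group held 3 tumours, each from a mouse of its own and on its own Affymetrix whole-transcript array. The labels give no strain, age, cell line, fat depot or genotype, and no treatment beside the site of injection. All tumours were analysed as whole tissue, in which fewer cells of a type and less RNA per cell cannot be told apart.

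Interleukins are secreted proteins through which immune, epithelial and stromal cells signal to each other. Most act through a receptor built from a chain that binds the cytokine and a chain that is often shared with other cytokines. Members of the IL-1 family signal through the adaptor MyD88 to NF-kB, IL-17 through the adaptor Act1, and most others through JAK kinases and STAT transcription factors. Soluble antagonists, decoy receptors and binding proteins hold several of these cytokines in check. Fat is a known source of IL-33 and IL-6, and colorectal tumours are a well-studied setting for IL-1, IL-6, IL-11, IL-17 and IL-22.

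No interleukin or receptor gene passed the test between the sites. Differences are white adipose minus non-adipose on the log2 scale, from limma over all 22180 genes with Benjamini-Hochberg adjustment and a threshold of 0.05; 0 genes passed, or 0% of all tested, and the smallest adjusted p among members was 0.936. At an unadjusted p under 0.05 there were 4 members, or 5.13%, beside 3.79% of all genes. These were Il20ra and Il27, with higher means in white adipose tumours (background 1.66% of all genes), and Il17ra and Il23r, with lower means (background 2.13%). Groups of arrays did not overlap for those 4 genes and for Il1r1, which makes 6.41% of members beside 7.31% of all genes (3.34% higher and 3.97% lower). An absolute difference of 0.5 or more was seen in 4 members (Il1f5, Il1f8, Il1f9 and Il17rd), or 5.13%, beside 1.56% of all genes, and the first 3 of these rested on 1 tumour. The shares by p and by overlap lie near the background.

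Means leaned to the white adipose side without a call. Of the 40 ligand symbols, 27 had a higher and 13 a lower mean there, and the median difference was 0.056, beside -0.00043 over all genes. Of the 37 receptors, 23 were higher and 14 lower, with a median of 0.082. Over all genes, 49.7% had a higher mean in white adipose tumours. The receptors' mean level over the list was 6.51, 6.27 and 6.56 in non-adipose tumours 1, 2 and 3, and 6.48, 6.55 and 6.57 in white adipose tumours 1, 2 and 3, so that non-adipose tumour 2 lay below the other 5. Without it the receptors' mean difference went from 0.086 to 9.5e-06. For the ligands the level was 5.27, 5.18 and 5.32 in non-adipose and 5.42, 5.27 and 5.31 in white adipose tumours, and the mean difference of 0.078 became 0.016 without the 5 IL-36 family genes, an alternative chosen after seeing the data. The ligand count did not shrink with the mean. Without white adipose tumour 1, 28 of the 40 had a higher mean in white adipose tumours (70%, beside 51.5% of all genes). Of the 40, however, 25 averaged at or under the benchmark for dim signal given below.

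**Figure D1:**
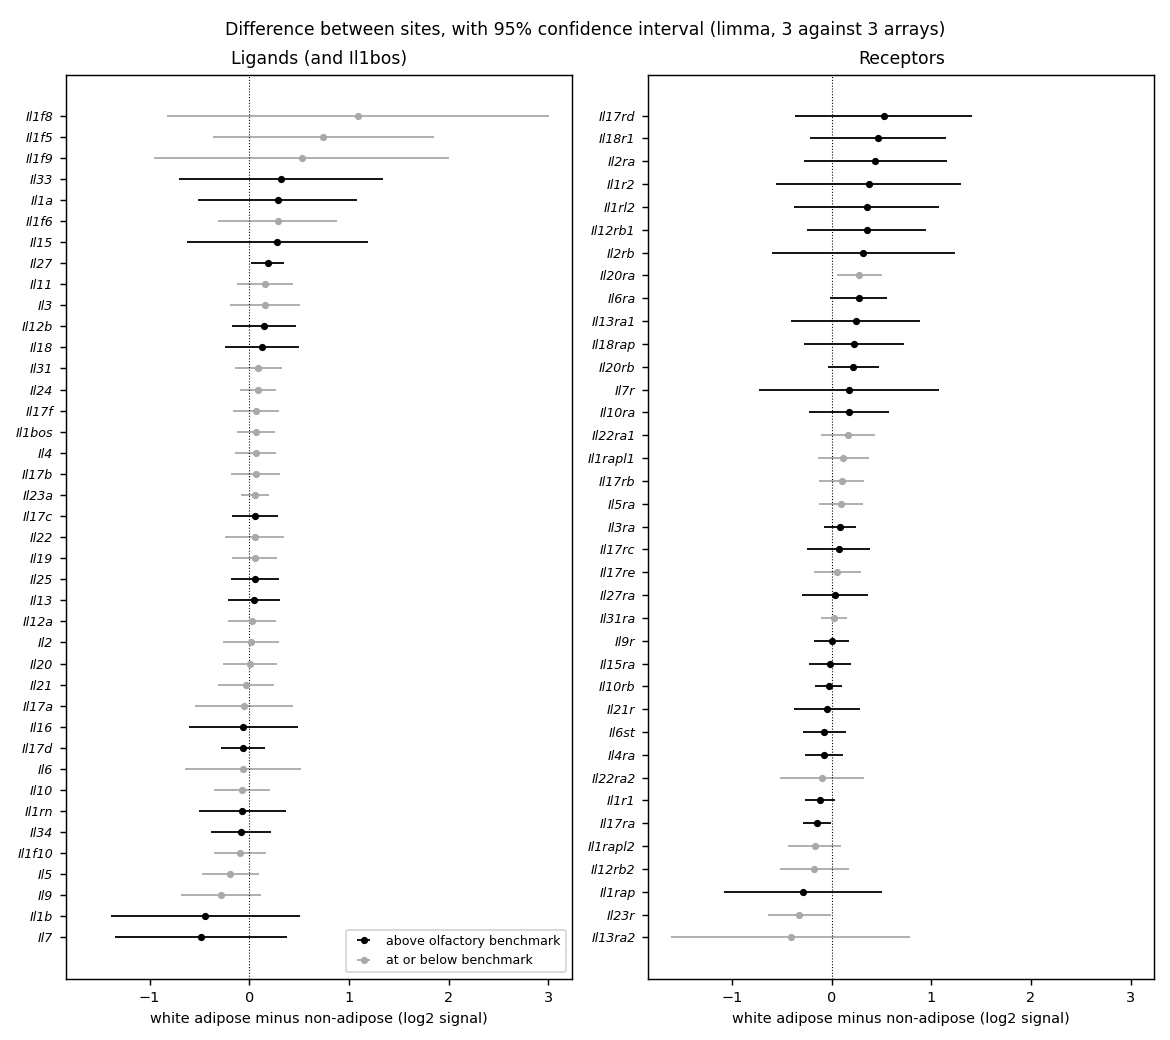
Difference of each member between sites (x axis, white adipose minus non-adipose log2 signal) with its 95% confidence interval, for the 40 ligand symbols on the left and the 37 receptors on the right; grey marks genes at or below the olfactory receptor benchmark of 5.46. Intervals that leave out 0 are those of Il27, Il20ra, Il17ra and Il23r, and the widest belong to Il1f8, Il1f9 and Il13ra2.

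The files hold no detection calls, so the 1105 olfactory receptor genes served as a guide to dim signal. They were assumed to be mostly silent in these tumours, which was not tested. Of them, 95% averaged under 5.46 over the 6 arrays. Above that benchmark were 15 ligand symbols, 25 receptors and Il18bp, together 41 members or 52.6%, against 59.7% of all genes. The other 37 included the cytokine genes Il2, Il3, Il4, Il5, Il6, Il9, Il10, Il11, Il17a, Il17f, Il21, Il22 and Il31, whose low values may be background. Probe sets differ in their own background, so the benchmark is a guide and not a detection call.

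The tumours were checked against markers of cell types. Macrophage markers (10 genes, list means of 9.18 to 9.44) and fibroblast markers (9.23 to 9.80) were well above the benchmark in all 6 tumours, and of the T cell markers all 8 measured were above it. Of 9 intestinal epithelial markers only Krt8, Krt18 and Cdh1 were above it; Epcam, Cdx1, Cdx2, Vil1, Krt20 and Cdh17 were not, although the tumours are labelled colorectal cancer. Of 6 adipocyte markers measured, Plin1, Plin4 and Retn were above it and Adipoq, Cidec and Lep were not; the list means were 5.28 to 5.32 in non-adipose and 5.25 to 5.52 in white adipose tumours. Of 5 NK cell and 4 B cell markers, 0 were above the benchmark. White adipose tumour 1 had keratinocyte markers at a list mean of 8.42, against 5.30 to 6.16 in the other 5, and non-adipose tumours 1 and 3 had skeletal muscle markers at 6.22 and 6.96, against 5.01 to 5.30 in the other 4.

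Il20ra encodes a receptor chain for IL-19, IL-20 and IL-24. Its signal was 4.62, 4.31 and 4.38 in non-adipose tumours 1, 2 and 3 and 4.77, 4.69 and 4.69 in white adipose tumours 1, 2 and 3. All 3 white adipose values were above the non-adipose ones, though all 6 lay under the benchmark. The difference was 0.28 (SE 0.094, unadjusted p = 0.0247, limma adjusted p = 0.936). Its partner chain Il20rb was at 6.16, 6.37 and 6.47 in non-adipose and 6.51, 6.69 and 6.46 in white adipose tumours, where the groups overlapped through white adipose tumour 3, and the difference was 0.22 (SE 0.10).

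Il27 encodes the p28 subunit of IL-27, a cytokine that tempers T cell responses. It read 6.42, 6.39 and 6.37 in non-adipose tumours and 6.61, 6.65 and 6.46 in white adipose tumours. The groups did not overlap, white adipose tumour 3 coming closest to the other site. The means were 6.39 ± 0.023 (SD, n = 3) and 6.57 ± 0.097 (SD, n = 3), a difference of 0.18 (SE 0.069) or 1.13-fold, with an unadjusted p of 0.0384 in limma and an adjusted p of 0.936. Its receptor gene Il27ra differed by 0.036 (SE 0.14).

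Il17ra encodes the receptor chain that most IL-17 cytokines share. It was 7.76, 7.71 and 7.81 in non-adipose and 7.58, 7.63 and 7.63 in white adipose tumours. Every white adipose value was below every non-adipose value, within a narrow range. The difference of -0.15 (SE 0.058, 95% interval -0.29 to -0.01) amounts to 1.11-fold, and with 1 array left out it ran from -0.18 to -0.13.

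Il23r, the receptor chain specific to IL-23, a cytokine that maintains IL-17-producing T cells, was 4.12, 4.23 and 3.75 in non-adipose and 3.72, 3.72 and 3.70 in white adipose tumours. All values were under the benchmark, and non-adipose tumour 3 was next to the white adipose group. The difference was -0.32 (SE 0.13). Il1r1, the signalling receptor for IL-1, was 9.78, 9.76 and 9.79 in non-adipose and 9.70, 9.57 and 9.70 in white adipose tumours. These groups did not overlap either, with a difference of -0.12 (SE 0.0625) and an unadjusted limma p of 0.103.

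**Figure D2:**
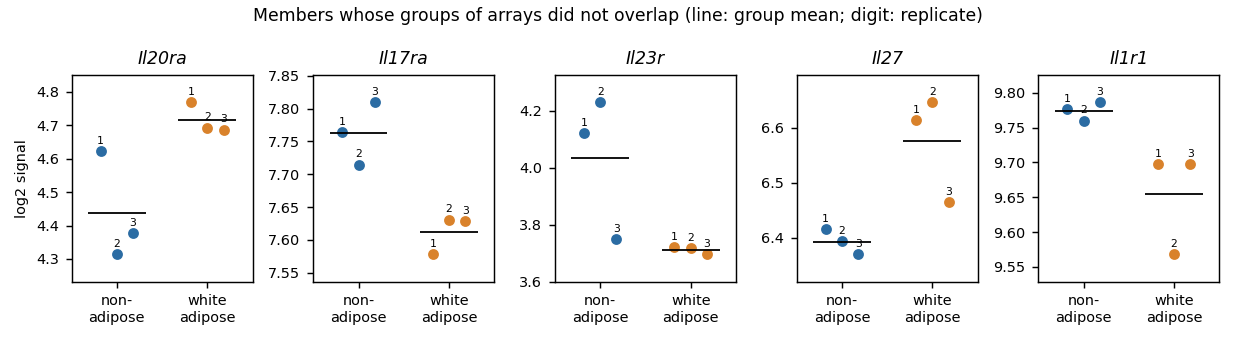
Log2 signal (y axis, its own range in each panel) of the 5 members whose groups did not overlap, by site; points are single tumours with their replicate number and lines are group means. The gaps are small: the means differ by 0.28 for Il20ra, 0.18 for Il27, -0.12 for Il1r1, -0.15 for Il17ra and -0.32 for Il23r.

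The largest differences of all members were those of Il1f8, Il1f5 and Il1f9, which belong to the IL-36 branch of the IL-1 family, and these rested on 1 tumour. All 5 ligand genes of this branch averaged under the benchmark. IL-36 cytokines are made mainly by keratinocytes and other barrier epithelia and act through the receptor encoded by Il1rl2. Il1f8 encodes IL-36 beta, Il1f9 IL-36 gamma, Il1f6 IL-36 alpha, Il1f5 the IL-36 receptor antagonist and Il1f10 IL-38. In RefSeq these 5 genes and Il1rn lie side by side with no other protein-coding gene between them, and Il1rl2 lies in a second run of 6 with Il1r2, Il1r1, Il1rl1, Il18r1 and Il18rap.

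Because most of these genes had their highest value in the same tumour, the 250 bases before the annotated start are shown for the 4 neighbours held in the RefSeq promoter table (GRCm38.p6), of which Il1f10 did not follow the others, and for Il1rl2, each read 5′ to 3′ on the gene's strand. Capitals mark a match, on either strand, to an AP-1 motif (TGA, then any base, then TCA), a TATA box (TATAAA) or an NF-kB motif (GGG, then any 5 bases, then CC).
Il1f8 (chr2:24152922-24153171, plus strand): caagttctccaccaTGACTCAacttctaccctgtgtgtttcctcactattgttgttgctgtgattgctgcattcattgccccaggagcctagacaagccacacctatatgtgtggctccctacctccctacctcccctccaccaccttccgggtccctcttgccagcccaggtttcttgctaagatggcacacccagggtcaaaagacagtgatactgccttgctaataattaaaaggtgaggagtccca
Il1f9 (chr2:24186226-24186475, plus strand): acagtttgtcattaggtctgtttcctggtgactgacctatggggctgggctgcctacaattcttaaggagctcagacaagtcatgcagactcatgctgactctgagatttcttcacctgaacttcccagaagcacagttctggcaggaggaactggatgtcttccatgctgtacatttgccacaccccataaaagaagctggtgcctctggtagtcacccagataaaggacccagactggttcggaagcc
Il1f5 (chr2:24276704-24276953, plus strand): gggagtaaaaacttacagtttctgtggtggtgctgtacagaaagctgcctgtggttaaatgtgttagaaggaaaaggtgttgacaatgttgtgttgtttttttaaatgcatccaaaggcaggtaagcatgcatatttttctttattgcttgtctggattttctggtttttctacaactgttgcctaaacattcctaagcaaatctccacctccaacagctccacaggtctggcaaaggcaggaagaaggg
Il1f10 (chr2:24290946-24291195, plus strand): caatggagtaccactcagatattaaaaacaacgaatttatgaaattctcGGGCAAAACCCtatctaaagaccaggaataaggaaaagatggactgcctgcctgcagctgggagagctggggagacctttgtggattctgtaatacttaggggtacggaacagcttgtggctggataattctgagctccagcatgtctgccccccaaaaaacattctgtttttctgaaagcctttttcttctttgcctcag
Il1rl2 (chr1:40324339-40324588, plus strand): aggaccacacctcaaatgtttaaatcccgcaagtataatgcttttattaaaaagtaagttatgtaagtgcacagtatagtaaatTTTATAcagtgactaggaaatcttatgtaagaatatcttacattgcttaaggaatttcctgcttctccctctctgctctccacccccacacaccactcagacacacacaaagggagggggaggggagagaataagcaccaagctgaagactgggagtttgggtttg
Il1f8 holds 1 AP-1 match, which begins 236 bases before the start. Il1rl2 holds 1 TATA match, read on the opposite strand, which begins 166 bases before the start, and Il1f10 holds 2 overlapping NF-kB matches. Among 32851 windows of the same length, 6.75% hold the AP-1 letters, 12.4% the TATA letters and 45.8% the NF-kB letters. A match is a description of the letters and not a bound site. No motif was shared among Il1f8, Il1f9, Il1f5 and Il1rl2, and the windows of Il1f6 and Il1r2 were not searched.

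Il1f8 was 3.00, 3.35 and 3.21 in non-adipose tumours and 6.20, 3.49 and 3.13 in white adipose tumours. White adipose tumour 1 exceeded the mean of the other 5 by 2.96, a size measured against values under the benchmark, while tumours 2 and 3 lay near the non-adipose group. The site difference was 1.09 (SE 0.79) with all arrays and 0.13 without that tumour. Il1f9 was 4.40, 4.03 and 4.54 in non-adipose and 6.31, 4.12 and 4.10 in white adipose tumours, again high in tumour 1 alone, and its difference went from 0.53 (SE 0.61) to -0.21 without it. Il1f5, the antagonist gene, was 4.03, 3.71 and 4.36 in non-adipose and 5.82, 4.32 and 4.18 in white adipose tumours. It too was high in white adipose tumour 1, by 1.71 over the mean of the others, and differed by 0.74 (SE 0.45), or 0.22 without that tumour.

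Il1f6 was 5.91 in white adipose tumour 1 and 4.95 to 5.10 in the other 5. Il1rl2, the receptor gene, was 5.59, 5.15 and 5.79 in non-adipose and 6.48, 5.56 and 5.55 in white adipose tumours. Agonists, antagonist and receptor thus had their highest value in the same tumour. Il1f10 did not, at 5.08 in white adipose tumour 1 and 5.40 to 5.45 elsewhere. Nor did Il1r1, which lies between Il1r2 and Il1rl2 and read 9.70 there.

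The decoy receptor gene Il1r2, whose product binds IL-1 without signalling, followed the same tumour. It was 6.07, 5.31 and 5.74 in non-adipose and 6.90, 5.62 and 5.72 in white adipose tumours. White adipose tumour 1 exceeded the mean of the others by 1.21, or 2.31-fold, and the site difference of 0.37 (SE 0.38) became -0.037 without it. Keratinocyte markers were high in the same tumour. In that tumour the differentiation keratin genes Krt10 and Krt1 read 11.59 and 10.44, against 5.90 to 6.16 and 4.98 to 5.20 in the other 5, and Lor, a cornified envelope gene, read 8.60 against 5.24 to 5.59. Of the 6 keratinocyte markers above the benchmark, 5 were highest in white adipose tumour 1, with Trp63 as the exception; Dsg3 was under the benchmark on average. Krt14, Dsg3 and Trp63 were also high in non-adipose tumour 3, at 7.23, 6.09 and 7.26. There Il1f5, Il1f9 and Il1rl2 read 4.36, 4.54 and 5.79, each its highest value outside white adipose tumour 1. Il1f8 and Il1f6 read 3.21 and 5.05 there, within the range of the remaining tumours. Mast cell markers too were highest in white adipose tumour 1, at a list mean of 6.12 against 4.68 to 5.51 in the other 5, with 3 of 8 above the benchmark on average. The part of either cell type in the IL-36 values was not tested.

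**Figure D3:**
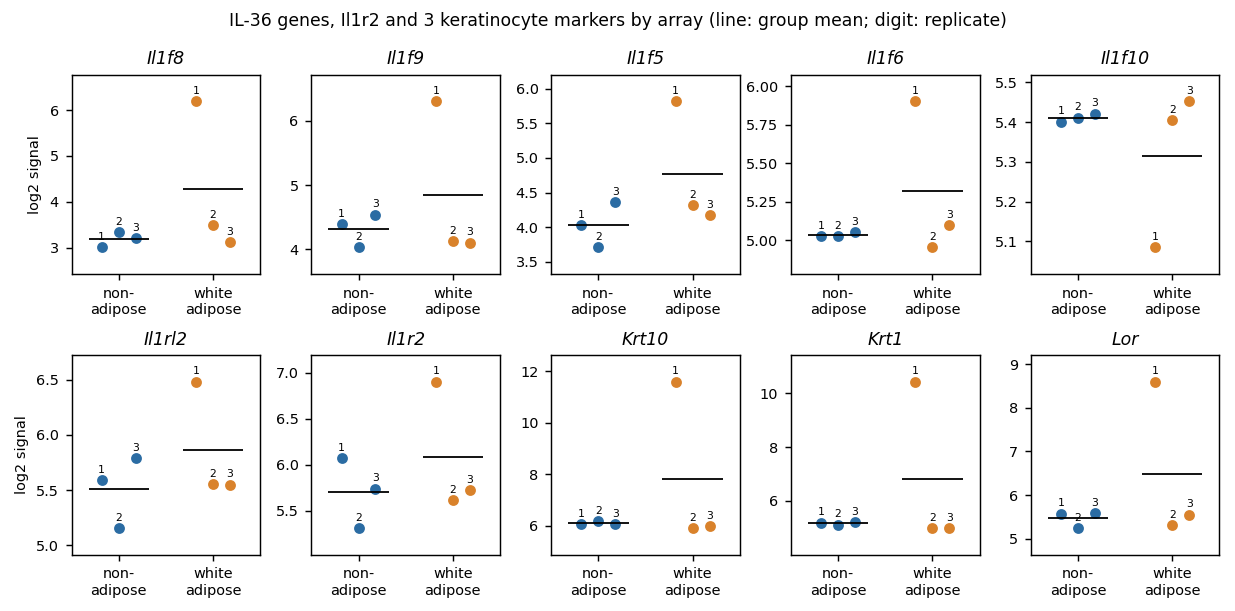
Log2 signal (y axis, its own range in each panel) of the IL-36 genes, Il1r2 and the keratinocyte markers Krt10, Krt1 and Lor by site; points are single tumours with their replicate number and lines are group means. White adipose tumour 1 stands above the other 5 in every panel but that of Il1f10, where it is lowest at 5.08.

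Among the classical IL-1 agonists, Il1b, the secreted inflammatory form, was 8.44, 6.88 and 7.73 in non-adipose and 7.27, 6.97 and 7.49 in white adipose tumours. Non-adipose tumour 1 was highest and tumour 2 of the same site lowest, so the non-adipose spread enclosed the white adipose values. The difference was -0.44 (SE 0.39), which ran from -0.84 without non-adipose tumour 2 to -0.06 without non-adipose tumour 1. Neutrophils are a known source of IL-1 beta, and the 8 neutrophil markers, 2 of them above the benchmark, stood at 5.59, 4.77 and 5.42 in non-adipose and 4.74, 5.06 and 5.07 in white adipose tumours; their part in the Il1b values was not tested. Il1a was 6.02, 5.02 and 6.15 in non-adipose and 5.67, 6.28 and 6.08 in white adipose tumours. Only non-adipose tumour 2 was apart, and the difference of 0.28 (SE 0.33) became -0.070 without it.

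The antagonist gene Il1rn was 6.86, 6.58 and 6.73 in non-adipose and 6.97, 6.29 and 6.69 in white adipose tumours, which overlapped, with a difference of -0.073 (SE 0.18). Il1rap, the accessory chain that IL-1, IL-33 and IL-36 receptors share, was 7.33, 7.06 and 6.68 in non-adipose and 7.44, 6.32 and 6.45 in white adipose tumours. White adipose tumour 1 lay with non-adipose tumours 1 and 2, and the difference was -0.29 (SE 0.33), from -0.64 to -0.079 with 1 array left out. Its other probe sets averaged 4.35 and 3.17, both dim, and differed by 0.20 and 0.096, the opposite direction. Il1bos was under the benchmark in all tumours, at 4.49 to 4.71, with a difference of 0.067 (SE 0.076).

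IL-33 is an alarmin released from stromal and epithelial cells. Il33 was 9.98, 9.40 and 10.81 in non-adipose and 9.76, 10.78 and 10.59 in white adipose tumours. The white adipose values lay within the non-adipose range, with non-adipose tumour 2 lowest and tumour 3 highest, and the difference was 0.32 (SE 0.42; -0.013 without non-adipose tumour 2). Il18, activated like IL-1 beta by caspase-1, was 7.32, 7.03 and 7.56 in non-adipose and 7.31, 7.60 and 7.38 in white adipose tumours and differed by 0.13 (SE 0.15). Il18bp, whose product neutralises IL-18, was 7.90, 7.74 and 7.90 against 7.38, 8.02 and 7.90. It was lowest in white adipose tumour 1 and differed by -0.081 (SE 0.17).

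Both chains of the IL-18 receptor had higher means in white adipose tumours. Il18r1 was 5.97, 5.71 and 6.14 in non-adipose and 5.87, 6.38 and 6.97 in white adipose tumours. White adipose tumours 2 and 3 were above all non-adipose values and tumour 1 among them, and the difference of 0.46 (SE 0.28) was 0.18 without white adipose tumour 3 and 0.73 without tumour 1. Il18rap was 7.65, 6.88 and 7.45 against 7.49, 7.43 and 7.72, a difference of 0.22 (SE 0.21) that became -0.0011 without non-adipose tumour 2.

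Of the 7 receptor genes of the common gamma chain group, 3 had a higher and 4 a lower mean in white adipose tumours, and the largest differences were those of Il2ra and Il2rb. Il2ra, the high-affinity IL-2 receptor chain carried by activated and regulatory T cells, was 7.42, 6.75 and 7.35 in non-adipose and 7.06, 8.04 and 7.74 in white adipose tumours. White adipose tumours 2 and 3 were the highest and non-adipose tumour 2 the lowest, and the difference was 0.44 (SE 0.29), from 0.23 to 0.72 with 1 array left out. Il2rb, shared by IL-2 and IL-15, was 6.18, 5.58 and 6.85 against 5.96, 6.79 and 6.82, with a difference of 0.32 (SE 0.38; 0.0054 without non-adipose tumour 2). T cell markers stood at list means of 6.04, 5.72 and 6.88 in non-adipose and 6.25, 6.63 and 6.47 in white adipose tumours. Regulatory T cell markers, 3 of 4 above the benchmark, stood at 5.86, 5.63 and 6.30 against 5.97, 6.21 and 6.26. Both list means were lowest in the same tumour as Il2ra and Il2rb, non-adipose tumour 2. Of the 8 T cell markers, 5 were lowest there, as were 2 of the 3 regulatory T cell markers above the benchmark. Foxp3 was not, at 6.56 there and 6.45 to 6.64 in the other tumours. The part of T cells in these values was not tested.

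Il15, a cytokine that sustains NK and memory T cells, was 7.44, 6.21 and 7.56 in non-adipose and 7.65, 7.19 and 7.20 in white adipose tumours. Non-adipose tumour 2 lay 2.30-fold below the mean of the other 5, and without it the difference turned from 0.28 (SE 0.37) to -0.15. Il7r, the IL-7 receptor chain, was 7.52, 6.18 and 7.52 against 7.42, 7.15 and 7.17, with the same tumour lowest and a difference of 0.17 (SE 0.37; -0.27 without it). Il7 itself, a survival factor for lymphocytes made by stromal and epithelial cells, went another way. It was 7.01, 6.95 and 6.89 in non-adipose and 7.30, 5.84 and 6.27 in white adipose tumours, so tumours 2 and 3 were below and tumour 1 above all non-adipose values. The difference was -0.48 (SE 0.35) with all arrays, -0.90 without white adipose tumour 1 and -0.17 without tumour 2.

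Il15ra was steady at 6.85 to 7.11 over the 6 tumours, with a difference of -0.018 (SE 0.086). Il4ra, the chain that IL-4 and IL-13 share, ranged from 8.66 to 8.94 and differed by -0.076 (SE 0.080, 95% interval -0.27 to 0.12). These intervals bound the difference and do not show that the sites were alike. The ligand genes Il2, Il4, Il9 and Il21 were all under the benchmark.

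IL-13 signals through Il13ra1 and is bound by the decoy Il13ra2. Il13ra1 was 10.04, 9.06 and 9.95 in non-adipose and 9.93, 9.81 and 10.03 in white adipose tumours. The 5 tumours other than non-adipose tumour 2 lay within 9.81 to 10.04, and the difference of 0.24 (SE 0.26) became -0.073 without that tumour. Il13ra2 was 6.10, 4.10 and 5.60 in non-adipose and 5.01, 4.70 and 4.86 in white adipose tumours. Here the non-adipose tumours held both extremes, at a mean of 5.27 ± 1.04 (SD, n = 3) against 4.86 ± 0.155 (SD, n = 3), and the difference of -0.41 (SE 0.49) was -0.99 without non-adipose tumour 2 and 0.0060 without non-adipose tumour 1. Il13ra2 averaged 5.06, under the benchmark. Skeletal muscle markers, all 7 of them with a lower mean in white adipose tumours and 4 above the benchmark, were also highest in non-adipose tumours 1 and 3. Their list means there were 6.22 and 6.96, so that they peaked in tumour 3 and Il13ra2 in tumour 1. Neutrophil markers, 2 of 8 above the benchmark, were highest in the same tumours, at list means of 5.59 and 5.42. The part of either cell type in the Il13ra2 values was not tested.

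Of the IL-6 group, which signals through gp130, Il6 was under the benchmark in every tumour, at 2.99 to 3.77, and Il11 was at 5.14 to 5.62. Il6 differed by -0.064 (SE 0.24) and Il11 by 0.16 (SE 0.12). The receptors were bright. Il6ra was 8.17, 8.11 and 8.39 in non-adipose and 8.44, 8.68 and 8.36 in white adipose tumours. Only non-adipose tumour 3 and white adipose tumour 3 overlapped, and the difference was 0.27 (SE 0.12, 95% interval -0.012 to 0.55). Il6st, which encodes gp130, was 10.37 to 10.62 in all 6 tumours and differed by -0.072 (SE 0.087).

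IL-10 limits inflammation and signals through Il10ra and Il10rb. Il10 was dim at 3.51 to 3.94. Il10ra was 7.56, 7.20 and 7.65 in non-adipose and 7.37, 7.78 and 7.77 in white adipose tumours, with non-adipose tumour 2 lowest and a difference of 0.17 (SE 0.16; 0.037 without that tumour). Il10rb stayed within 9.27 to 9.37 and differed by -0.028 (SE 0.056). Of the 11 genes of the IL-10 family, 8 had a higher and 3 a lower mean in white adipose tumours. However, 8 of the 11 averaged at or under the benchmark, all 5 ligand genes among them, so the count rests mostly on dim genes.

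Of the IL-12 and IL-23 group, Il12rb1, the receptor chain both cytokines share, was 6.78, 6.56 and 7.24 in non-adipose and 6.78, 7.49 and 7.36 in white adipose tumours. White adipose tumours 2 and 3 exceeded every non-adipose value and tumour 1 did not, and the difference was 0.35 (SE 0.24), from 0.20 to 0.57 with 1 array left out. The ligand subunits Il12a, Il12b and Il23a differed by 0.027 to 0.14.

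The IL-17 cytokine genes differed little, from -0.063 to 0.070 over 6 genes, of which Il17c, Il17d and Il25 were above the benchmark. Among the receptors Il17rd, which also restrains fibroblast growth factor signalling, had the largest difference of the family. It was 5.82, 6.41 and 6.54 in non-adipose and 6.01, 7.05 and 7.28 in white adipose tumours. White adipose tumours 2 and 3 were above the rest and tumour 1 was next to the lowest, with a difference of 0.52 (SE 0.37) that became 0.91 without tumour 1 and 0.27 without tumour 3. Il17rc differed by 0.070 (SE 0.13).

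IL-34, the second ligand of the macrophage receptor Csf1r, and IL-16, a ligand of CD4, have no close relatives on the list. Il34 was 8.77, 9.18 and 8.97 in non-adipose and 8.92, 8.99 and 8.76 in white adipose tumours, which overlapped, with a difference of -0.081 (SE 0.12). Il16 was 6.63, 6.90 and 7.12 against 6.36, 7.07 and 7.04. It was lowest in white adipose tumour 1, and its difference of -0.060 (SE 0.22) became 0.17 without that tumour.

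The low values of non-adipose tumour 2 recurred over the members. Of the 41 members above the benchmark, 19, or 46.3%, had their lowest value of the 6 arrays in it, against 14.7% of all genes above the benchmark. They were the ligand genes Il1a, Il1b, Il12b, Il15, Il18 and Il33 and the receptor genes Il1r2, Il1rl2, Il2ra, Il2rb, Il6ra, Il6st, Il7r, Il10ra, Il12rb1, Il13ra1, Il18r1, Il18rap and Il21r. White adipose tumour 2 held the highest value of 14 members, or 34.1%, against 19.5% of all genes, and non-adipose tumour 3 that of 10 members, or 24.4%, against 13.8%. The list mean of macrophage markers was not low in non-adipose tumour 2, at 9.32 within a range of 9.18 to 9.44. Single markers differed: of the 10, 3 were lowest there (Adgre1, C1qc and Mertk). Mrc1 was highest there, at 9.11 against 7.44 to 8.67 elsewhere. The list mean of dendritic cell markers was lowest in that tumour, at 5.86 against 6.05 to 6.52. The part of these cell types in the values was not tested.

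**Figure D4:**
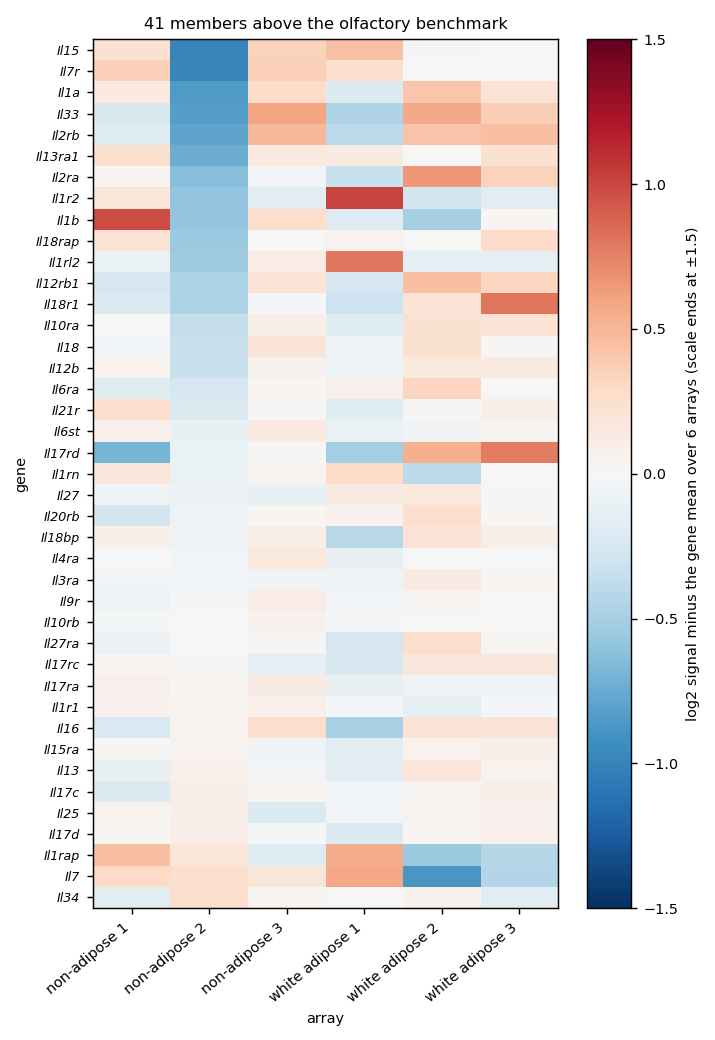
Log2 signal minus the gene's mean over 6 arrays (colour, scale ends at 1.5 either way) for the 41 members above the benchmark (rows, ordered by non-adipose tumour 2 against the other 5) in each tumour (columns). Il15, Il7r and Il1a are at the top with their lowest value in non-adipose tumour 2, and Il1r2 and Il1rl2 show their high value in white adipose tumour 1.

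**Figure D5:**
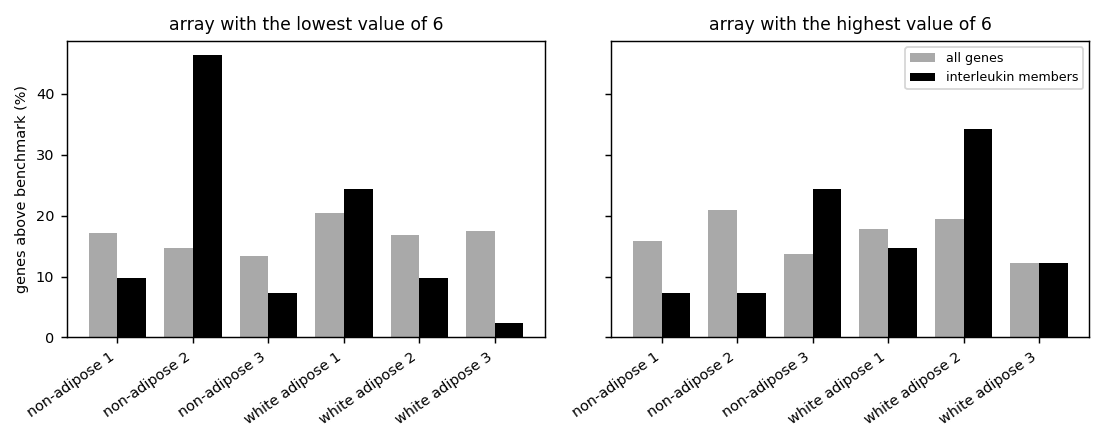
Share of genes above the benchmark (y axis, percent) whose lowest value (left) or highest value (right) of the 6 arrays lies in each tumour, for the 41 interleukin members in black and the 13248 genes in all in grey. The tallest bar is non-adipose tumour 2 on the left, at 46.3% of members against 14.7% of all genes.

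With white adipose tumour 1 left out, other members led. At an unadjusted p under 0.05 there were then 7 members, or 8.97%, beside 8.12% of all genes. Il7 and Il1rap had lower means and Il2ra, Il12rb1, Il17rc, Il17rd and Il18r1 higher means in white adipose tumours 2 and 3, with differences of -0.90 and -0.64 and of 0.72, 0.57, 0.21, 0.91 and 0.73 in that order. None passed in limma (smallest adjusted p among members 0.49). Il20ra, Il27, Il17ra and Il23r were not among them. With non-adipose tumour 2 left out as well, 7 members were again at an unadjusted p under 0.05 (Il2ra, Il7, Il7r, Il13ra2, Il15, Il17rd and Il1f9), beside 7.94% of all genes.

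Genes next to the interleukins in these pathways gave no call either. Of 15 JAK, STAT and SOCS genes, 6 had a higher and 9 a lower mean in white adipose tumours, the median difference was -0.015, and 1 was at an unadjusted p under 0.05: Stat2, which transmits type I interferon signals, at -0.35 (SE 0.13). Of 13 receptor adaptor and NF-kB feedback genes, 4 were higher and 9 lower. The NF-kB inhibitor genes Nfkbia and Tnfaip3, which NF-kB itself induces, were the 2 at an unadjusted p under 0.05, or 15.4% of that list, against 6.67% of the JAK, STAT and SOCS list and 3.79% of all genes (2.13% with lower means). By overlap the list held 0% of genes with separate groups, beside 7.31% of all genes. It was also chosen with earlier results of these data known, so its share is not independent evidence. Nfkbia was 9.73, 9.18 and 9.51 in non-adipose and 9.18, 8.80 and 8.94 in white adipose tumours. The sites met at 9.18, and the difference was -0.50 (SE 0.17). Tnfaip3 was 8.21, 7.79 and 8.23 against 7.86, 7.38 and 7.61, with a difference of -0.46 (SE 0.17).

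Of 9 inflammasome and IL-1 processing genes, 4 were higher and 5 lower, and the pyrin gene Mefv, dim at 4.04 to 4.83, was at 0.37 (SE 0.15). Of 15 related cytokine and shared receptor genes, 4 were higher and 11 lower. Lif, a cytokine that signals through gp130, was 6.53, 6.69 and 6.56 in non-adipose and 6.11, 6.08 and 6.38 in white adipose tumours. The groups did not overlap, and the difference was -0.40 (SE 0.10, limma adjusted p = 0.936). Mefv was 1 of 9 genes in its list at an unadjusted p under 0.05 (11.1%) and Lif 1 of 15 (6.67%), beside 3.79% of all genes. By overlap, Lif was 1 of 15 with separate groups (6.67%), beside 7.31% of all genes. Il6st, the gp130 gene through which LIF acts, differed by -0.072, as given above.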

How the data were processed

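Total RNA of 6 tumours was labelled with the WT PLUS kit and hybridised, 1 tumour to an array, per the labels' protocols. The deposited log2 values (41345 probe sets, 0 missing, 0 columns of other samples, array medians 5.66 to 5.69) were used as the authors gave them; that they are log2 was read from their range of 0.973 to 13.6. The submitters' processing notes name Affymetrix Expression Console. How it corrected background, summarised probes and normalized arrays is not stated in the labels or headers used here. Scanner files were not analysed here, so array batches were not tested.

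Probe sets took genes from the platform's annotation: 23521 had 1 symbol, 1814 several and 16010 none there; identifiers of 23328 matched RefSeq (GRCm38.p6) and 0 symbols were updated. The set with the highest mean over 6 arrays was kept for each of 22180 genes. The site contrast, 3 against 3 arrays, came from limma 3.58.1 (R 4.3.3; lmFit and eBayes without trend), with no filter and no block, and adjusted by Benjamini-Hochberg over all genes; SE is the moderated one. The median SE of a member's difference was 0.12, and the number of arrays limits the precision. The fit was also run on simulated data with independent noise in each gene and no outlying array. That run does not show how the fit behaves with an array such as white adipose tumour 1. Per-array values were given for members at an unadjusted p under 0.05 or an absolute difference of 0.5 or more and for a list of well-known members; Il1f6, Il1f10, Il1rl2, Il18r1, Il18rap, Il2ra, Il2rb, Il12rb1, Il20rb, Il10rb, Il17rc and others outside that rule were chosen after their values were seen. Il1bos encodes no protein; it was counted with the ligands (mean difference 0.078 with and without it). The members and lists were chosen with earlier results of these data known. Alternatives were other scalings, a filter on dim genes, probe set averaging, array weights, trended variance, a replicate block and leaving out arrays.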

Additional observations from a re-analysis of the deposited data

How the results depend on the processing

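Under all 14 alternatives run (quantile normalization, array medians subtracted, dim genes left out, mean of probe sets, array weights, trended variance, the replicate block, each array left out, and 2 arrays left out together), limma called 0 genes and 0 members. The smallest adjusted p of a member ranged from 0.49, without white adipose tumour 1, to 0.993, without non-adipose tumour 1. The 4 members at an unadjusted p under 0.05 (5.13%, beside 3.79% of all genes) became 2 with dim genes left out (Il17ra and Il27; 4.88% beside 4.17%), 7 with array weights (8.97% beside 7.31%), 1 to 7 with 1 array left out (1.28% to 8.97% beside 2.89% to 8.12%) and 7 (8.97% beside 7.94%) with white adipose tumour 1 and non-adipose tumour 2 both left out, an alternative chosen after seeing the data. With that pair left out the ligands' mean difference of 0.078 became -0.00095. Even so, 30 of the 40 ligand symbols had a higher mean in white adipose tumours (75%, beside 52.2% of all genes), with a median difference of 0.055. With 1 array left out the ligands' mean difference ran from 0.036 to 0.11, and that of the receptors from 9.5e-06 to 0.14. With quantile normalization 3 members were at an unadjusted p under 0.05 (Il20ra, Il23r and Il6ra, 3.85% beside 3.71%). With array medians subtracted there were also 3 (Il17ra, Il20ra and Il23r, 3.85% beside 3.93%). Il27 was not among the members in either setting, nor with array weights. With the replicate number as a block, 3 members were at an unadjusted p under 0.05 (Il17rd, Il20ra and Il23r; 3.85% beside 4.87%). Deviations of same-numbered tumours correlated at 0.14, 0.064 and 0.064, so the numbers were not taken to pair them.

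Of 673 gene results under alternatives, 38 had the opposite sign, in 21 of 49 genes followed, and none was called. With 1 array left out the ranges of genes that changed sign were Il10 -0.17 to 0.039, Il13ra1 -0.073 to 0.42, Il13ra2 -0.99 to 0.0060, Il15 -0.15 to 0.52, Il15ra -0.069 to 0.061, Il16 -0.19 to 0.17, Il18 -0.011 to 0.26, Il18bp -0.21 to 0.11, Il18rap -0.0011 to 0.38, Il1a -0.070 to 0.49, Il1f10 -0.17 to 0.018, Il1f6 -0.010 to 0.47, Il1f9 -0.21 to 0.90, Il1r2 -0.037 to 0.61, Il1rn -0.23 to 0.11, Il33 -0.013 to 0.69, Il34 -0.18 to 0.024, Il6 -0.26 to 0.14 and Il7r -0.27 to 0.40. With the pair of arrays left out, values of opposite sign were Il13ra1 -0.078, Il15 -0.30, Il15ra 0.084, Il16 0.18, Il18bp 0.057, Il1f10 0.018, Il1f6 -0.013, Il1f9 -0.35, Il1r2 -0.24, Il1rl2 -0.14, Il34 0.0085 and Il7r -0.36. With array weights they were Il15ra 0.031, Il16 0.11 and Il18bp 0.032, and with probe sets averaged Il1rap was at 0.0046. The cause was not tested. Dim members limit what these arrays show: 37 of 78 lay at or under the benchmark.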

Other observations

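Exact repeats of a value between arrays were common in the deposited table. Of the 22180 genes, 35.3% had the same value, as deposited, on at least 2 of the 6 arrays. Among the 78 members, 16 did, or 20.5%. Il24, a cytokine gene of the IL-10 family, had 1 value, 5.13, in non-adipose tumour 3 and in all 3 white adipose tumours, and so an SD of 0 in that group. Il31ra had 4.88 in 4 of the 6 tumours. The fitted SE of such a gene rests in part on the spread that limma borrows from other genes.

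Neighbouring genes did not share a pattern throughout. Il4ra and Il21r are neighbours in RefSeq, as are Il2ra and Il15ra. Il2ra ranged from 6.75 to 8.04 over the 6 tumours, whereas Il15ra ranged from 6.85 to 7.11.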
